A study of Mus musculus with 54 samples.

Results

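Early proximal tubules of Akita diabetic mice with intact Sglt1 were compared with the same tubules of non-diabetic mice with intact Sglt1, both given vehicle. The comparison takes 6 Akita and 5 non-diabetic samples, 11 of the 48 libraries in the deposited table (54 samples are labelled), and was made across 12742 genes that reached a TPM (an abundance per transcript length, scaled to the same sum in every library) of at least 1 in at least 5 of the 48 libraries. The Akita mice were DBA males carrying 1 mutant and 1 normal Ins2 allele (Ins2 Akita/+) and both normal Sglt1 alleles, and received vehicle for 2 weeks. The non-diabetic mice were their DBA male littermates with 2 normal Ins2 alleles and both normal Sglt1 alleles, also given vehicle for 2 weeks, and all were 14 weeks old. The corresponding mice lacking Sglt1 gave 6 Akita and 5 non-diabetic vehicle samples, which serve for comparison at the end. The other libraries of the series came from mice given dapagliflozin or semaglutide. They entered the estimate of the spread between samples and the choice of genes to test, since a gene had to reach 1 TPM in any 5 of all 48 libraries, and no comparison is made with them here. Each sample was RNA from 70 to 80 tubules that stained for SGLT2, cut from kidney sections by laser capture. The Akita allele is carried by the whole animal, so effects of glucose, of insulin and of other consequences of the disease on the tubule cannot be told apart. No label ties the samples to individual animals, so the p-values measure only how far these samples spread, part of which may be technical.

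The early proximal tubule takes back most of the filtered glucose, phosphate, bicarbonate and amino acids, and SGLT2, encoded by Slc5a2, carries glucose across its apical membrane. The Akita allele of Ins2 encodes an insulin that misfolds in the endoplasmic reticulum of pancreatic beta cells, and the mice become insulin deficient, most severely the males. Mouse proximal tubules are also a strongly sex-dependent tissue: androgen raises Kap, Odc1, Gusb and several cytochrome P450 genes in males.

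The libraries carried the identity that their selection implies. All 10 early proximal tubule markers had at least 1 TPM in each of the 11 libraries, and their summed level ran from 1045 to 1694 TPM in Akita tubules (median 1407) and from 1084 to 2165 TPM in non-diabetic tubules (median 1334). Genes detected per library numbered 8624 to 10845 in Akita and 9305 to 10891 in non-diabetic tubules (exact permutation test, two-sided p = 0.273, BH-adjusted over 5 library measures p = 0.384). The most abundant gene of each library held 45.4% to 57.3% of all TPM in Akita and 40.8% to 55.5% in non-diabetic tubules. Nuclear protein-coding genes other than Lars2 held 5.98% to 11.6% in Akita and 7.93% to 12.3% in non-diabetic tubules. The exact permutation test gave two-sided p = 0.156 and 0.225 for these shares, on which every TPM depends. Akita samples 2 and 5 had fewer than 9000 genes. They had the lowest overall levels, with medians over all genes 0.39 and 0.48 below the non-diabetic mean on the log2(TPM + 1) scale. Sequencing depth is not preserved by TPM and is unknown here. The median log2 fold change of all genes, Akita over non-diabetic, was -0.15, and median-of-ratios scaling, which removes such a shift, brought it to -0.00. Medians of gene lists are therefore given relative to that of all genes.

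In Akita tubules 2 genes rose and 1 fell at an adjusted p under 0.05 (limma, Benjamini-Hochberg over all genes tested), which is 0.0157% and 0.00785% of the genes. Apob and the long intergenic RNA gene Gm42047 rose, and Car3 fell. At an unadjusted p under 0.05, 76 genes (0.596%) were higher and 893 (7.01%) lower. The libraries of the groups did not overlap for 8 genes (0.0628%) that were higher and 83 (0.651%) that were lower in Akita. With median-of-ratios scaling the unadjusted counts were 475 higher (3.73%) and 588 lower (4.61%), and without the libraries under 9000 genes 196 higher (1.54%) and 261 lower (2.05%). Most genes leaned the same way: 9462 of all 12742 (74.3%) had a negative log2 fold change, which became 6421 with median-of-ratios scaling and 6735 without those libraries. Counts of list members are set beside these shares of all genes.

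Apob encodes the structural protein around which very-low-density lipoproteins and chylomicrons are built, chiefly in liver and intestine. The gene lies at chr12:7977648-8016835 on the plus strand (GRCm38). It had 4.21 TPM at its lowest, 10.2 at the median and 13.5 at its highest in Akita tubules, against 2.02, 1.26, 0.944, 1.60 and 2.17 TPM in the 5 non-diabetic samples. Every Akita sample lay above every non-diabetic one, and the Akita samples were the more widely spread. Its log2 fold change was 1.97 ± 0.38 (SE, adjusted p = 0.0242 by limma), with means of 9.66 ± 3.78 TPM in Akita and 1.60 ± 0.511 TPM in non-diabetic tubules (SD, n = 6 and 5).

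Gm42047 is annotated as a long intergenic non-coding RNA at chr8:121833247-121841178 on the plus strand (GRCm38). Its level in Akita tubules was 3.45 TPM at the lowest, 8.15 at the median and 26.7 at the highest, against 0.404, 0.448, 1.05, 1.52 and 0.774 TPM in non-diabetic tubules. Every Akita sample lay above every non-diabetic one, and Akita sample 1 stood far above its group. The log2 fold change was 2.41 ± 0.44 (SE, adjusted p = 0.0242 by limma). The nearest tested gene, Klhdc4, lies 3678 bases upstream on the opposite strand and had a log2 fold change of -0.14 ± 0.25 (adjusted p = 0.924 by limma).

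Car3 encodes a cytosolic carbonic anhydrase of low activity that is abundant in muscle, liver and fat. It lies at chr3:14863512-14872523 on the plus strand. The gene was listed at 0 TPM in 1 Akita sample, with a median of 0.315 and a maximum of 0.858 TPM in Akita tubules, against 5.69, 8.01, 1.68, 13.9 and 6.15 TPM in non-diabetic tubules. The groups did not overlap, and the non-diabetic samples differed widely among themselves. Car3 fell by 2.39 ± 0.47 on the log2 scale (SE, adjusted p = 0.0316 by limma). Adipocyte markers, which share a tissue with Car3, summed to between 1.25 and 5.09 TPM in Akita and between 1.17 and 19.5 TPM in non-diabetic tubules, with Lep and Retn at 0 in all 11 libraries. Non-diabetic sample 5, the highest in Car3, was also the highest in these markers. Non-diabetic sample 6, with 6.15 TPM of Car3, had the lowest sum at 1.17 TPM, while Akita samples 1 and 4 had 5.09 and 4.89 TPM. The part of adipocytes in the difference was not tested.

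None of the 3 calls held throughout. Leaving out 1 library gave between 0 and 6 calls, with 0 without Akita sample 6 or without non-diabetic sample 1, 3 or 6, 1 without non-diabetic sample 5, 5 without Akita sample 3 and 6 without Akita sample 1. Without the libraries under 9000 genes only Apob was called (2.31, adjusted p = 0.0216), and with the number in each sample's title as a covariate 1 gene was called.

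**Figure D1:**
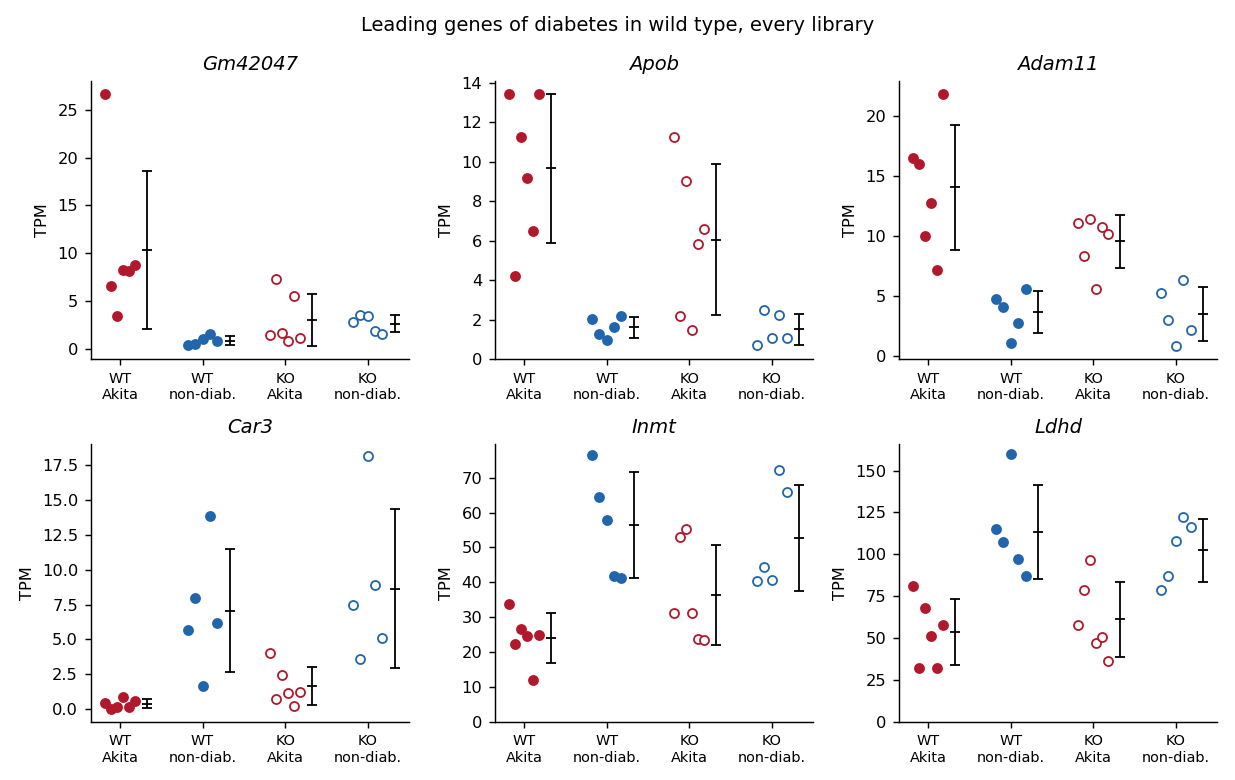
TPM of 6 leading genes in every vehicle library, with WT for mice with intact Sglt1 (filled) and KO for mice lacking it (open), Akita in red and non-diabetic in blue; black bars are the group mean and SD. In wild type the Akita and non-diabetic points do not overlap for any of the 6 genes, while in knockouts Gm42047 lies between 0.795 and 7.27 TPM in Akita and between 1.57 and 3.54 TPM in non-diabetic samples.

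Below the threshold, the next genes by rank were Adam11 and Inmt, each with an adjusted p of 0.0627 by limma. Adam11, a disintegrin-family membrane protein without protease activity, had 7.15, 14.3 and 21.8 TPM as the lowest, median and highest Akita values, against 4.76, 4.08, 1.05, 2.76 and 5.58 TPM in non-diabetic samples (log2 fold change 1.72 ± 0.37). Inmt, an amine N-methyltransferase that acts on tryptamine, had 11.9, 24.8 and 33.8 TPM in Akita samples, against 76.5, 64.4, 57.95, 41.7 and 41.2 TPM in non-diabetic samples (log2 fold change -1.21 ± 0.26). Both genes separated the groups completely. Ldhd, mitochondrial D-lactate dehydrogenase, had 31.8, 54.4 and 81.2 TPM in Akita tubules and 115, 108, 160, 96.9 and 87.1 TPM in non-diabetic tubules (log2 fold change -1.12 ± 0.25, adjusted p = 0.108 by limma). Its groups did not overlap either.

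Among the genes with the highest moderated statistic, the others named here had log2 fold changes between 0.62 and 1.03, with adjusted p-values between 0.201 and 0.476 by limma. Npl, which cleaves sialic acid, had 1.93, 4.22 and 5.20 TPM in Akita tubules and 1.59, 1.57, 1.22, 1.44 and 1.12 TPM in non-diabetic tubules, again without overlap. The others were the RNase P-related gene Rpp25l, the endoplasmic reticulum exit-site gene Sec16b, the paralemmin gene Palm3, the integrin subunit gene Itgb6, Fam219a, the epoxide hydrolase gene Ephx1 and Smco4.

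The 12 genes with the lowest statistic had log2 fold changes between -2.39 and -0.72. Besides Car3, Inmt and Ldhd these were Aimp1, a scaffold of the aminoacyl-tRNA synthetase complex, the secreted C1q-family gene C1qtnf3, the ethanol-metabolising P450 gene Cyp2e1, the cell-surface gene Cd47, the membrane protein gene Serinc3, the acetyl-CoA acetyltransferase gene Acat3, the cyclophilin gene Ppic, the endoplasmic reticulum gene Bcap31 and the carboxylesterase gene Ces1f. For Cyp2e1 the Akita values were 56.6, 68.5 and 140 TPM and the non-diabetic ones 181, 184, 205, 172 and 143 TPM, so that the highest Akita sample came just under the lowest non-diabetic one. Aimp1 was low throughout but separated cleanly, with 1.91, 2.88 and 3.21 TPM in Akita tubules and 4.51, 6.43, 7.26, 5.56 and 8.27 TPM in non-diabetic tubules. Ces1f, at 59.7, 83.9 and 135 TPM in Akita and 168, 266, 179, 171 and 122 TPM in non-diabetic tubules, belongs to a cluster of close copies between which reads may be split. With median-of-ratios scaling Inmt, Ldhd, Cyp2e1 and Ces1f were called as lower beside Car3, which made 5 lower in all, and 7 genes were called as higher, among them Apob, Gm42047, Adam11 (adjusted p = 0.0156 by limma) and Npl (adjusted p = 0.0475 by limma).

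Genes known to be androgen induced or male biased in mouse kidney were the list that lay furthest below the rest. All 16 tested members had a negative log2 fold change, against 74.3% of all genes. Of these, 14 were at an unadjusted p under 0.05, against 7.01%, and 4 separated the groups, against 0.651%. The list median was 0.87 below that of all genes, and lay between 0.75 and 0.98 below it when each library was left out in turn. None of the 16 passed the adjusted threshold. With the other scalings 15 of 16 members were lower, since Cyp4a12b, a close copy of Cyp4a12a at 1.21 TPM or less, changed sign. Without the libraries under 9000 genes the list median lay 0.73 below that of all genes, with 6 members at an unadjusted p under 0.05.

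Kap, the kidney androgen-regulated protein of mice, had 634 TPM at its lowest, 991 at the median and 1279 at its highest in Akita tubules, against 2025, 1534, 2402, 1773 and 1524 TPM in non-diabetic tubules. The groups did not overlap (log2 fold change -0.96 ± 0.25, adjusted p = 0.201 by limma). Cyp4a12a, an androgen-dependent fatty acid hydroxylase of mouse kidney, had 15.2, 25.2 and 38.9 TPM in Akita tubules and 59.0, 38.5, 87.6, 58.3 and 52.6 TPM in non-diabetic tubules, where only Akita sample 1 reached the non-diabetic range. Slco1a1, an organic anion transporter, had 7.58, 13.3 and 30.8 TPM in Akita tubules and 50.3, 25.6, 63.7, 36.2 and 27.9 TPM in non-diabetic tubules (log2 fold change -1.38 ± 0.36, adjusted p = 0.201 by limma). Akita sample 1 again lay inside the non-diabetic range, and the other 5 below it. Slc7a13, a cystine and acidic amino acid exchanger of the male straight tubule, separated the groups, with 11.2, 13.2 and 25.4 TPM in Akita tubules and 46.4, 43.9, 37.6, 27.1 and 27.8 TPM in non-diabetic tubules.

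The Akita samples were not alike in these genes. Sample 2 was below the lowest non-diabetic value in all 16 genes, sample 5 in 15, samples 4 and 6 in 13 each, sample 3 in 10 and sample 1 in 5. Sample 1, which was above the highest non-diabetic value in 2 of the genes, had the highest Akita value in 11 of 16. Among non-diabetic samples, sample 4 was the highest in 11 of 16. Over all genes, samples 2 and 5 were also the ones most often below the non-diabetic range, in 5449 and 6580 of 12742 genes, while samples 4 and 6 were so in 2754 and 2184.

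Of the 8 tested genes of androgen action and steroid conversion, 3 were lower at an unadjusted p under 0.05 against 7.01% of all genes. Without the libraries under 9000 genes 2 were lower, against 2.05%. The 3 were the 5-alpha reductase gene Srd5a2, which makes dihydrotestosterone, the steroid dehydrogenase gene Hsd17b11, and Fkbp5, a co-chaperone induced by androgen and glucocorticoid. Srd5a2 was low in both groups, with 0.312, 0.622 and 1.48 TPM in Akita tubules and 2.59, 0.753, 5.71, 2.26 and 1.36 TPM in non-diabetic tubules, and the ranges overlapped. Of 3 female-biased genes listed, 1 was tested.

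**Figure D2:**
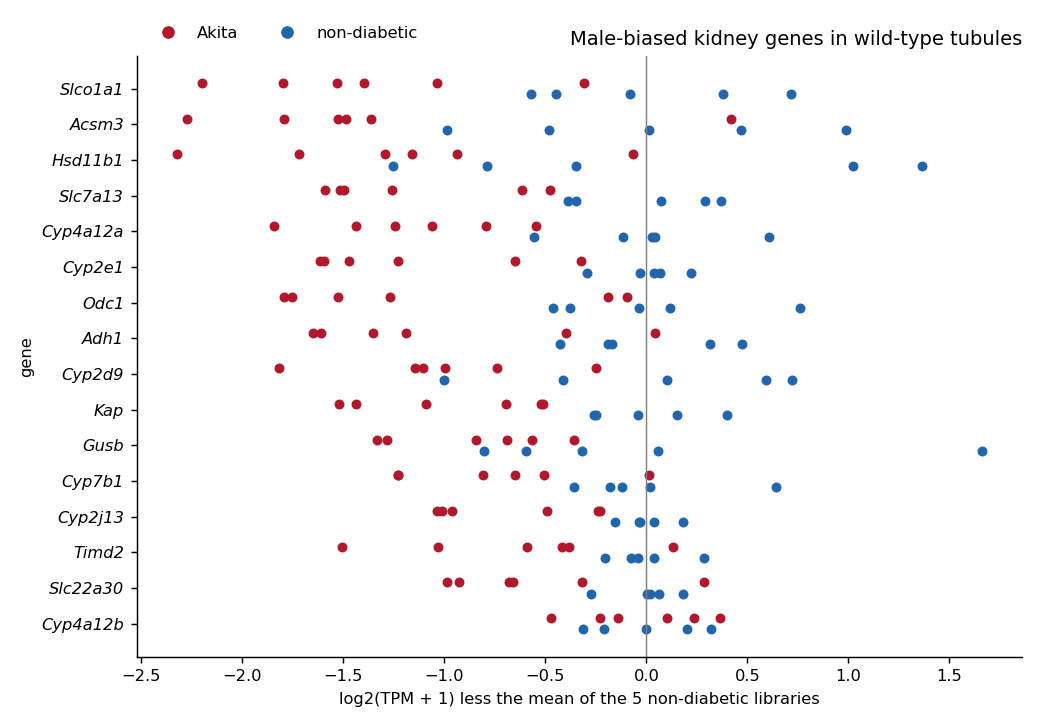
Level of each of 16 male-biased genes in every wild-type library, as log2(TPM + 1) less the mean of the 5 non-diabetic libraries, with Akita samples in red above and non-diabetic samples in blue below on each gene's line. Akita points lie left of the non-diabetic ones without overlap in 4 genes, and Cyp4a12b at the foot shows no such shift.

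The promoters of Apob and of the male-biased genes with the lowest p-values for which one was at hand are shown from RefSeq (GRCm38.p6), to set the sequence beside genes that moved in opposite directions. Each is 250 bases before and 50 after the annotated start, written 5′ to 3′ on the gene's own strand, with matches to the TATA sequence TATAAA on either strand in capitals.
Apob promoter, chr12:7977427-7977726, plus strand: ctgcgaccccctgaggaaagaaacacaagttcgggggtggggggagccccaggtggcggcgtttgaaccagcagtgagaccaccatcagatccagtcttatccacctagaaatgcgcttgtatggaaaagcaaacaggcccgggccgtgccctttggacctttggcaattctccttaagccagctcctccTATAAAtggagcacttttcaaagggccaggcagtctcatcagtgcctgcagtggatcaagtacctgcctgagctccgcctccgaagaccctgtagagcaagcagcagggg
Cyp2e1 promoter, chr7:140763569-140763868, plus strand: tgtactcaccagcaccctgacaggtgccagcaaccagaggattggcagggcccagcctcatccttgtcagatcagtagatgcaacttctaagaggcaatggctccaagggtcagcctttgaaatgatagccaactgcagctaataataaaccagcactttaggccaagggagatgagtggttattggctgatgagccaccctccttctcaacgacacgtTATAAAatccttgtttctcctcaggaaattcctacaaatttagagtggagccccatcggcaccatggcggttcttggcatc
Kap promoter, chr6:133853618-133853917, minus strand: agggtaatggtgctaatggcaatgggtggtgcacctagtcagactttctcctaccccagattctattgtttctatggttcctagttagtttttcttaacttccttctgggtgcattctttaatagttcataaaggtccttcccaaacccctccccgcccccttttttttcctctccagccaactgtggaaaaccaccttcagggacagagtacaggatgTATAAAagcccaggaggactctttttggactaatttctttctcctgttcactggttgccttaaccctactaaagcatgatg
Slco1a1 promoter, chr6:141946913-141947212, minus strand: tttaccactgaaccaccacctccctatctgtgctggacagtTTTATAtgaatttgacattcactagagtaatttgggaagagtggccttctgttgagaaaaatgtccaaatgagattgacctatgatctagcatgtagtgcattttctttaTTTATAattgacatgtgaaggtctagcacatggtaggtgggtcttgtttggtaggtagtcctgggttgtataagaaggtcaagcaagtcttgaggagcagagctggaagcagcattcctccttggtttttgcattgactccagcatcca
The TATAAA match in Cyp2e1 and in Kap began 31 bases before the annotated start, and that in Apob 60 bases before it. These distances are from the RefSeq start, which lies downstream of the start of the GENCODE gene by 29 bases for Apob, 80 for Cyp2e1 and 95 for Kap, while both starts coincide for Slco1a1. Both matches in Slco1a1 were on the opposite strand, 209 and 99 bases before the start. Promoters were in the table for 12 of the 16 male-biased genes, and 4 of these 12 held the letters, against 13.6% of 32851 promoters.

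Markers of the later proximal tubule segments, S2 and S3, lay low as well. All 13 tested members had a negative log2 fold change, against 74.3% of all genes (10 under the other scalings), 7 of them were at an unadjusted p under 0.05, against 7.01%, and 1 separated the groups, against 0.651%. Without the libraries under 9000 genes 4 of the 13 were at an unadjusted p under 0.05, against 2.05% of all genes. The list median was 0.55 below that of all genes. Of the members, Slc7a13, Slco1a1 and Cyp7b1 are also on the male-biased list. Napsa, an aspartic protease of proximal tubule lysosomes, had 11.5, 28.9 and 43.02 TPM in Akita tubules and 63.4, 62.6, 59.9, 38.0 and 45.2 TPM in non-diabetic tubules, with 5 of 6 Akita samples below the non-diabetic range. The summed level of 8 defining late-segment markers ran from 133 to 409 TPM in Akita and from 290 to 503 TPM in non-diabetic tubules. Whether fewer late-segment cells were captured or their RNA was lower in each cell cannot be told apart in bulk samples.

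Few genes of the early segment itself were at an unadjusted p under 0.05. Of 24 tested, 3 were lower at an unadjusted p under 0.05, against 7.01% of all genes, and 0 higher. With median-of-ratios scaling 1 was lower and 2 higher, against 4.61% and 3.73% of all genes. Without the libraries under 9000 genes 0 were in either direction, against 2.05% lower and 1.54% higher. The list had a median 0.08 below that of all genes, which became 0.04 above under quantile normalization. Slc5a2 had 146, 198 and 226 TPM in Akita tubules and 180, 264, 141, 171 and 129 TPM in non-diabetic tubules, and the phosphate carrier gene Slc34a1 had 464, 620 and 802 TPM in Akita tubules and 539, 976, 633, 617 and 490 TPM in non-diabetic tubules. The groups overlapped almost completely for both (adjusted p = 0.919 and 0.996 by limma). The log2 fold change of Slc5a2 was 0.15 as fitted, 0.38 with median-of-ratios, 0.39 with nuclear coding and 0.61 with quantile scaling. The endocytic receptor gene Lrp2 had 70.3, 83.4 and 139 TPM in Akita tubules and 126, 193, 117, 109 and 96.5 TPM in non-diabetic tubules (log2 fold change -0.45 ± 0.24, adjusted p = 0.676 by limma).

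Of 11 tested glucose transport genes, 2 were lower at an unadjusted p under 0.05, against 7.01% of all genes, and both are low in these tubules. That count did not hold elsewhere. Under median-of-ratios scaling 0 were lower and 1 higher, against 4.61% and 3.73% of all genes. Without the libraries under 9000 genes 1 was lower, against 2.05%. The 2 genes were Slc2a1 (GLUT1), with 0.384, 0.851 and 1.34 TPM in Akita tubules and 1.33, 2.19, 1.47, 1.21 and 1.51 TPM in non-diabetic tubules, and the insulin-responsive transporter gene Slc2a4. Slc5a1, which encodes SGLT1, had 0.814, 1.32 and 3.55 TPM in Akita tubules and 2.92, 4.29, 2.27, 1.69 and 0.996 TPM in non-diabetic tubules (log2 fold change -0.33 ± 0.21, adjusted p = 0.743 by limma). Slc2a2, the basolateral exit route GLUT2, had 11.4, 15 and 19.6 TPM in Akita tubules and 18.8, 21.9, 15.4, 15.8 and 10.8 TPM in non-diabetic tubules, with a log2 fold change of -0.10 ± 0.25 that turned positive under the other scalings. Of 14 gluconeogenesis genes 1 was lower at an unadjusted p under 0.05, the pyruvate carboxylase gene Pcx, a share near the 7.01% of all genes. With median-of-ratios scaling 0 were lower and 1 higher, against 4.61% and 3.73% of all genes. The rate-limiting enzyme gene Pck1 had 121, 273 and 410 TPM in Akita tubules and 406, 329, 362, 322 and 411 TPM in non-diabetic tubules (log2 fold change -0.50 ± 0.32, adjusted p = 0.749 by limma), so that only 1 Akita sample was above the non-diabetic median. The aldose reductase gene Akr1b3, the entry to the polyol pathway, separated the groups in the lower direction, with 1.02, 4.56 and 6.09 TPM in Akita tubules and 7.59, 8.82, 6.35, 6.70 and 6.46 TPM in non-diabetic tubules (adjusted p = 0.483 by limma).

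Among lipoprotein and lipid uptake genes only Apob passed the adjusted threshold. Of 18 tested, 2 were higher and 4 lower at an unadjusted p under 0.05, against 0.596% and 7.01% of all genes, and the list median was 0.01 below that of all genes. Mttp, which loads lipid onto the Apob protein, had 0.677, 1.68 and 2.44 TPM in Akita tubules and 2.23, 4.44, 3.20, 2.51 and 1.36 TPM in non-diabetic tubules, a log2 fold change of -0.51 ± 0.27 (adjusted p = 0.679 by limma). The fatty acid binding protein gene Fabp3 was the other higher one, with 3.99, 8.56 and 13.3 TPM in Akita tubules and 4.42, 2.71, 4.05, 7.40 and 4.65 TPM in non-diabetic tubules. Lower were the fatty acid uptake genes Cd36 and Slc27a2, the lipoprotein lipase gene Lpl and the lysophospholipid carrier gene Mfsd2a. Cd36 had 12.1, 21.5 and 42.2 TPM in Akita tubules and 65.01, 39.9, 57.2, 54.7 and 36.9 TPM in non-diabetic tubules (log2 fold change -1.17 ± 0.30, adjusted p = 0.198 by limma), and only Akita sample 1 reached the non-diabetic range. Lpl had 3.57, 4.83 and 16.9 TPM in Akita tubules and 17.01, 17.96, 30.6, 11.4 and 9.35 TPM in non-diabetic tubules, with Akita samples 1 and 3 inside the non-diabetic range.

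Of 18 fatty acid synthesis genes, 4 were lower at an unadjusted p under 0.05, against 7.01% of all genes, namely Scd1, Me1, Fasn and Elovl5. Without the libraries under 9000 genes 2 were so, against 2.05%. The desaturase gene Scd1 was at 0.610 TPM or less in every Akita sample, with a median of 0.207, against 2.13, 0.277, 2.14, 2.87 and 4.003 TPM in non-diabetic tubules. Fatty acid oxidation had 8 of 26 members lower at an unadjusted p under 0.05, against 7.01% of all genes. Of these, 4 were among the 8 peroxisomal genes and 4 among the 18 mitochondrial ones. The 8 became 5 with median-of-ratios scaling, against 4.61% of all genes, and 1 without the libraries under 9000 genes, against 2.05%. Its list median was 0.08 below that of all genes, and 0.04 above it without the libraries under 9000 genes. Of 9 carbonic anhydrases tested, 2 were lower at an unadjusted p under 0.05, against 7.01% of all genes. Without the libraries under 9000 genes 1 was, against 2.05%. The membrane-bound Car4 was lower besides Car3 at an unadjusted p under 0.05, with 3.49, 8.94 and 25.0 TPM in Akita tubules and 18.2, 14.6, 19.3, 15.8 and 15.3 TPM in non-diabetic tubules.

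Enzymes and carriers that handle drugs, steroids and organic acids were lower in part. Conjugation enzymes had 15 of 30 members lower and 1, Ephx1, higher at an unadjusted p under 0.05, against 7.01% and 0.596% of all genes, with a list median 0.35 below that of all genes. The count of lower members was 10 with median-of-ratios scaling, against 4.61% of all genes, and 4 without the libraries under 9000 genes, against 2.05%. The carboxylesterase gene Ces2c separated the groups, with 5.08, 9.68 and 17.2 TPM in Akita tubules and 20.7, 21.9, 31.0, 17.5 and 17.7 TPM in non-diabetic tubules. Of 20 cytochrome P450 genes tested 8 were lower, against 7.01% of all genes, and 4 of the 8 (Cyp2e1, Cyp4a12a, Cyp2j13 and Cyp2d9) are also on the male-biased list. Without the libraries under 9000 genes 4 were lower, against 2.05%. Organic ion and urate transporters had 11 of 34 members lower, against 7.01% (5 without those libraries, against 2.05%). Among the 11 were Slco3a1 and the phosphate and urate carrier gene Slc17a1. Slc17a1 separated the groups with 6.57, 15.03 and 21.4 TPM in Akita tubules and 28.3, 25.5, 26.8, 25.0 and 22.9 TPM in non-diabetic tubules. In sulfur and methyl-group metabolism 6 of 22 were lower, against 7.01%, and 1, Bhmt, higher, against 0.596%. Without those libraries 3 were lower, against 2.05%, and 0 higher. Cdo1, cysteine dioxygenase, had 3.82, 7.07 and 9.10 TPM in Akita tubules and 12.1, 13.7, 20.6, 11.8 and 11.6 TPM in non-diabetic tubules, without overlap. Ace, the angiotensin-converting enzyme gene, had 1.62, 4.12 and 8.24 TPM in Akita tubules and 15.4, 8.09, 21.7, 8.93 and 7.27 TPM in non-diabetic tubules (log2 fold change -1.35 ± 0.36, adjusted p = 0.201 by limma). Akita sample 1 alone lay inside the non-diabetic range.

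Endoplasmic reticulum chaperone and response genes were mostly on the lower side, in counts that depended on the libraries included. Of 21 tested, 20 had a negative log2 fold change, against 74.3% of all genes (17 or 18 under the other scalings), and 10 were lower at an unadjusted p under 0.05, against 7.01%, with 0 higher. With median-of-ratios scaling 7 were lower, against 4.61% of all genes. The list median was 0.32 below that of all genes. The main chaperone gene Hspa5 had 19.8, 27.4 and 48.1 TPM in Akita tubules and 54.7, 40.1, 41.0, 43.8 and 48.7 TPM in non-diabetic tubules (log2 fold change -0.60 ± 0.23, adjusted p = 0.483 by limma). Akita samples 1 and 3 lay within the non-diabetic range. Without the libraries under 9000 genes 0 of the 21 were at an unadjusted p under 0.05, and the list median was 0.21 below that of all genes. Tricarboxylic acid cycle genes had 20 of 20 members with a negative log2 fold change, against 74.3% of all genes (15 or 16 under the other scalings), and 6 lower at an unadjusted p under 0.05, against 7.01%. The 6 became 2 with median-of-ratios scaling, against 4.61% of all genes, and 0 without those libraries, against 2.05%. Of 19 tested genes of tubular injury 2 were lower and 0 higher at an unadjusted p under 0.05, against 7.01% and 0.596% of all genes, and both counts were 0 with median-of-ratios scaling and without those libraries. The injury markers Lcn2 and Havcr1 were not tested, with Lcn2 listed at 0 in all 11 libraries and Havcr1 at most 0.788 TPM in Akita and 1.38 TPM in non-diabetic tubules. Ccnd1, the cyclin of the G1 phase, lay higher in all 6 Akita samples than the median non-diabetic one, with 18.9, 27.6 and 38.5 TPM in Akita tubules and 20.4, 17.9, 11.2, 21.6 and 14.02 TPM in non-diabetic tubules (log2 fold change 0.70 ± 0.30, adjusted p = 0.558 by limma).

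**Figure D3:**
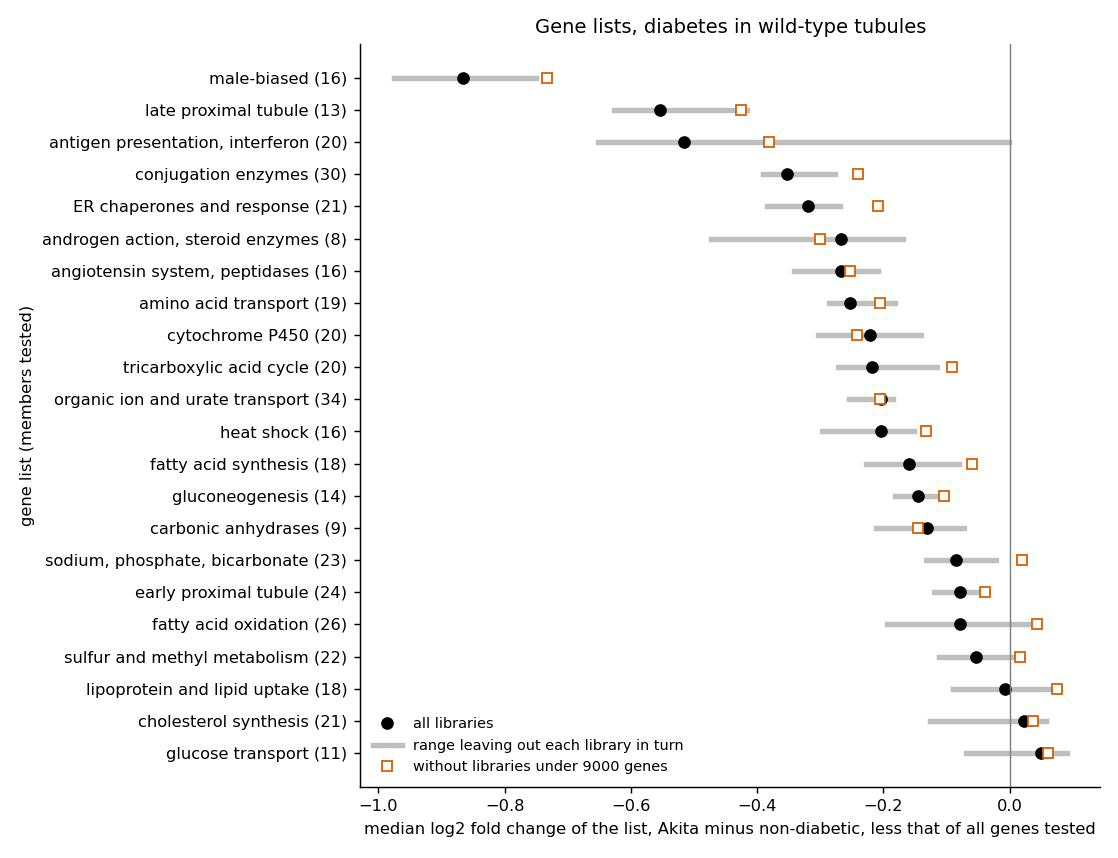
Median log2 fold change of each of 22 gene lists, Akita minus non-diabetic in wild type, less the median of all 12742 genes, with the number of members tested in brackets. Filled points use all libraries, grey bars span the values with each library left out in turn, and open squares are without the libraries under 9000 genes; the male-biased list lies lowest at 0.87 below all genes, and the bar of antigen presentation and interferon genes reaches 0.

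The low list median of antigen presentation and interferon genes in Akita rested on 1 non-diabetic library. All 20 tested members had a negative log2 fold change, against 74.3% of all genes (17 or 18 under the other scalings). The list median was 0.52 below that of all genes, and 3 members were lower at an unadjusted p under 0.05, against 7.01%. In 17 of the 20 genes non-diabetic sample 6 was above all 10 other libraries. Cd74, the invariant chain of MHC class II, had 3.94, 14.1 and 16.6 TPM in Akita tubules and 7.29, 16.8, 12.6, 19.5 and 118 TPM in non-diabetic tubules, and H2-Ab1 had 2.55, 8.51 and 12.7 TPM in Akita tubules and 9.02, 8.72, 5.27, 14.6 and 140 TPM in non-diabetic tubules. Without that sample the list median was equal to that of all genes to within 0.01, and 0 of 20 members were at an unadjusted p under 0.05. A negative log2 fold change was still found in 18 of the 20, in a fit where the median of all genes was -0.22. Macrophage markers in the 11 libraries summed to between 1.27 and 7.60 TPM in Akita and between 6.38 and 9.16 TPM in non-diabetic tubules. In non-diabetic sample 6 they summed to 8.66 TPM, and the highest sum, 9.16 TPM, was in non-diabetic sample 4. Of the 10 markers, 0 reached 1 TPM in all 11 libraries, and their part in the levels of sample 6 was not tested.

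**Figure D4:**
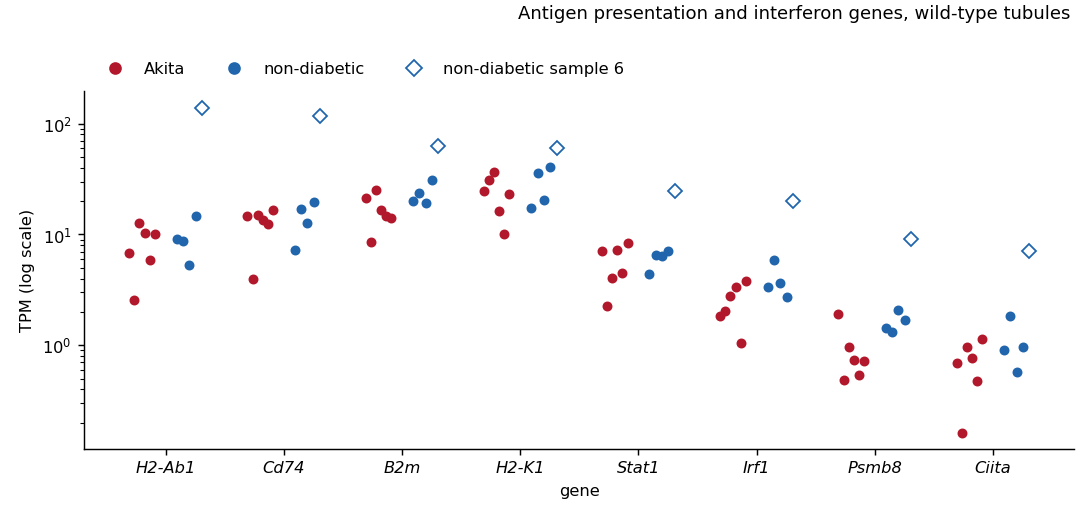
TPM on a log scale of 8 antigen presentation and interferon genes in every wild-type library, Akita in red on the left and non-diabetic in blue on the right of each gene. The open diamond is non-diabetic sample 6, which had 140 TPM of H2-Ab1 and 118 TPM of Cd74 and is the highest point for each gene shown.

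Marker sums of every neighbouring cell type checked were well below that of the early proximal tubule. Thick ascending limb markers had negative log2 fold changes in 5 of 5 tested, against 74.3% of all genes. Of these, 2 were at an unadjusted p under 0.05, against 7.01%, and 1 without the libraries under 9000 genes, against 2.05%. The thick ascending limb sum ran from 7.78 to 59.8 TPM in Akita and from 19.2 to 71.4 TPM in non-diabetic tubules. Umod, the most abundant protein gene of that segment, had 3.29, 8.26 and 30.1 TPM in Akita tubules and 41.7, 28.6, 37.1, 12.5 and 11.3 TPM in non-diabetic tubules. Distal convoluted tubule, endothelial and mesenchymal marker sums overlapped between the groups, and podocyte markers summed to between 3.77 and 17.6 TPM in Akita and between 3.28 and 8.80 TPM in non-diabetic tubules. Their part in the differences above was not tested.

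In tubules lacking Sglt1, Akita diabetes was compared in the same model with samples that share no library with those above. At an adjusted p under 0.05 limma called 0 genes, with 52 (0.408%) higher and 1784 (14%) lower at an unadjusted p under 0.05. The median of all genes was -0.24. Akita knockout samples 5 and 6 had fewer than 9000 genes, with 8529 and 8465. The unadjusted counts in knockouts are given only as fitted with all libraries. The difference between the diabetes effects in wild type and knockouts was called in 0 genes (limma, smallest adjusted p = 1.00), with 406 genes (3.19%) at an unadjusted p under 0.05. Across the 12742 genes the 2 effects had Pearson's r of 0.0848 and Spearman's rho of 0.121, and genes are not independent replicates.

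Apob and Car3 had changes of the same sign in knockouts, at an adjusted p above the threshold, and Gm42047 a value near 0. Apob had 1.45, 6.20 and 11.3 TPM as the lowest, median and highest values in Akita knockouts, against 0.713, 2.48, 1.05, 2.25 and 1.06 TPM in non-diabetic knockouts (log2 fold change 1.33 ± 0.38, adjusted p = 0.2 by limma), so that 4 of 6 Akita knockouts lay above all non-diabetic ones. Car3 had 0.243, 1.22 and 3.997 TPM in Akita knockouts and 7.51, 3.59, 18.2, 8.90 and 5.07 TPM in non-diabetic knockouts (log2 fold change -1.84 ± 0.47, adjusted p = 0.183 by limma). Gm42047 had 0.795, 1.57 and 7.27 TPM in Akita knockouts and 2.80, 3.54, 3.42, 1.82 and 1.57 TPM in non-diabetic knockouts, with 3 Akita values below all the non-diabetic ones, 1 among them and 2 above (log2 fold change -0.09 ± 0.44, adjusted p = 0.934 by limma). The difference between its effects in wild type and knockouts was 2.51 ± 0.63 (SE) with an unadjusted p of 0.000232 and an adjusted p of 1.00 by limma. Of the 16 male-biased genes 15 had a negative log2 fold change in knockouts, against 81.4% of all genes there. At an unadjusted p under 0.05, 9 of the 16 were lower, against 14% of all genes. Kap had 810, 1053 and 1967 TPM in Akita knockouts and 1287, 1448, 1937, 2203 and 1817 TPM in non-diabetic knockouts, and the groups overlapped. Of the 83 genes lower without overlap in wild type, 72 had a negative log2 fold change in knockouts, as had 10367 of all 12742 genes. Of the 83, 3 (3.61%) again separated the groups in the lower direction, as did 89 (0.698%) of all 12742.

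**Figure D5:**
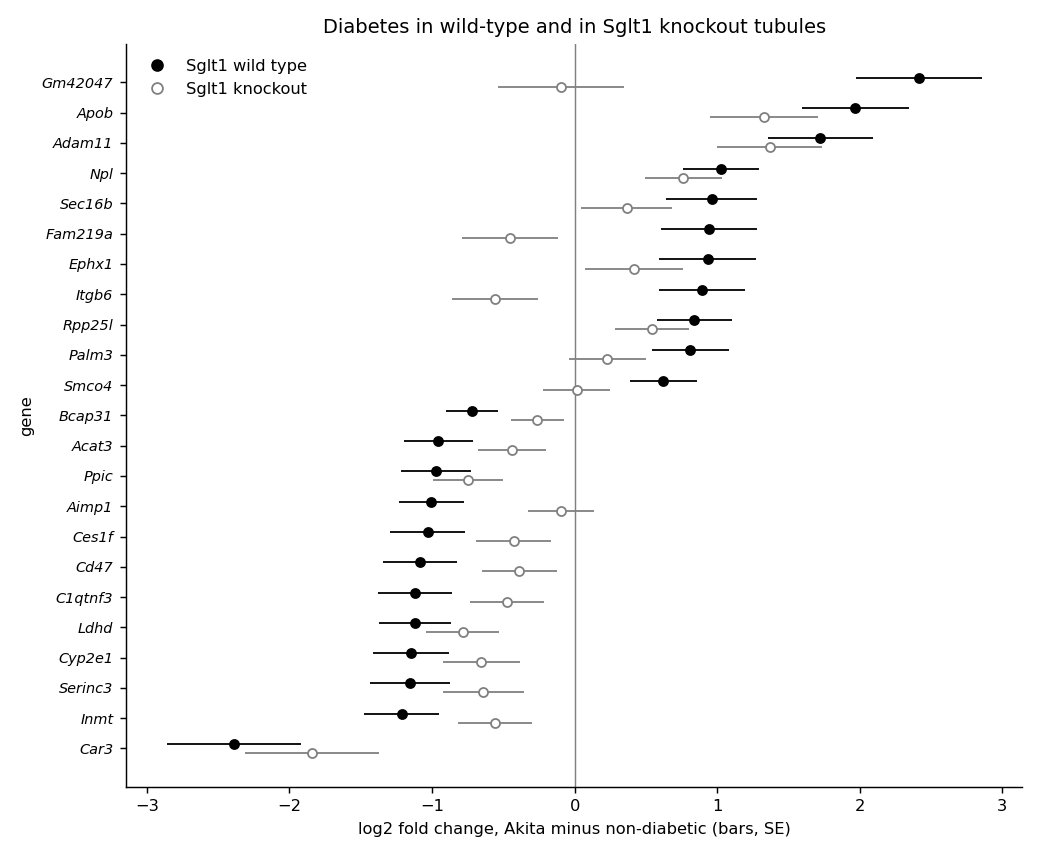
Log2 fold change, Akita minus non-diabetic, with SE bars for 23 genes, the called ones and those named from both ends of the moderated statistic in wild type, filled for mice with intact Sglt1 and open for mice lacking it. Apob, Adam11 and Car3 lie on the same side of 0 in both genotypes, at 1.33, 1.37 and -1.84 in knockouts, while Gm42047 is at 2.41 in wild type and -0.09 in knockouts.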

How the data were processed

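RNA of laser-captured tubules was made into libraries from 0.5 ng per sample with a stranded total RNA kit, per the labels' protocols. The deposited values are TPM, estimated by the authors with Salmon on GRCm38, per the submitters' processing notes, which also name MultiQC 1.8. The deposited table holds 48 of the 54 labelled samples and its name states that outliers were removed. The rule for that is not given in the sources used here, and it can narrow the spread within groups. Non-diabetic sample 2 is among the samples not analysed here. Columns were matched to samples by title, groups come from the labels, and samples were numbered within a group in accession order. No pair of columns held identical values.

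Of 55487 rows, the 12742 that reached a TPM of 1 in 5 or more columns were tested with limma 3.58.1 in R 4.3.3 on log2(TPM + 1), with a pseudocount of 1 that understates changes of low genes. One mean was fitted for each group over 48 libraries (39 residual degrees of freedom), with trended, robust moderation and Benjamini-Hochberg adjustment over all genes tested, and a call needed an adjusted p under 0.05. Fold changes are Akita minus non-diabetic. The script was tested on simulated data first. Alternatives were another pseudocount, filter and scaling (median of ratios, nuclear coding genes, quantiles), covariates, fewer groups, plain moderation and left-out libraries. TPM keeps no depth, so no counting interval can be given. Named genes were the called genes, the 12 highest and 12 lowest by moderated statistic (predicted genes left out) and up to 4 members of each list by p, plus the cell type markers. A few genes that this rule names, and other motifs searched in the promoters, are not reported here. Cd74, H2-Ab1, Bhmt, Cyp2j13, Cyp4a12b, Fabp3, Gusb, Hspa5, Mttp, Odc1, Slc27a2, Lcn2 and Havcr1 were added after their values were seen. The comparison and the gene lists were chosen with earlier results of these data known.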

Additional observations from a re-analysis of the deposited data

Results flagged for a closer look

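In 6 of the genes named and in 1 marker list, a library lay farther from its group than Dixon's criterion allows. Chance gives about 1 such case in 20 groups, and 7 were found among 236 checked, fewer than that rate would give. Akita sample 2 was low for Cd74 at 3.94 TPM and for Npl at 1.93 TPM, and Akita sample 5 was low for the fatty acid transport gene Slc27a2 at 249 TPM. Both libraries had fewer than 9000 genes. Akita sample 1 was high for Fkbp5 at 21.2 TPM. Non-diabetic sample 6 was high for Fam219a at 4.34 TPM and sample 3 for the methyltransferase gene Bhmt at 2.03 TPM. Red blood cell markers had a median 1.799 above the non-diabetic mean on the log2(TPM + 1) scale in non-diabetic sample 4.

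Fdx1, ferredoxin of the mitochondrial P450 electron chain, had its Akita samples on opposite sides of the non-diabetic median in wild type and in knockouts. All 6 Akita samples lay below the non-diabetic median in wild type, and all 6 lay above it in knockouts. The difference between the effects, wild type minus knockout, was -1.08 (limma, unadjusted p = 0.00149, adjusted p = 1.00) and was not called. Of all 12742 genes, 406 (3.19%) had an unadjusted p under 0.05 for that difference.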

How the results depend on the processing

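The count of called genes in wild type, 3 as fitted, was 1 with the title number as covariate, 6 with a filter of TPM 5, 12 with median-of-ratios scaling, 0 with no filter, 11 with nuclear coding scaling, 6 with only the groups compared, 8 with quantile normalization and 1 without libraries under 9000 genes. Leaving out each library in turn gave 0 to 6 calls. Car3 was called in 11 of 22 alternatives, Gm42047 in 15 and Apob in 15. In knockouts the count of 0 calls became 0 to 1 with each library left out. The list median of antigen presentation genes, 0.52 below that of all genes, ran from -0.65 to -0.00 with each library left out, the last without non-diabetic sample 6 (-0.0015). Over all 22 alternatives the male-biased median stayed between -1.002 and -0.73, the late-segment one between -0.69 and -0.42, conjugation between -0.49 and -0.24 and the endoplasmic reticulum list between -0.46 and -0.21. Of 1521 values for 70 named genes, 1445 kept direction and side of the threshold, 25 lost the call, 25 gained it and 26 changed sign, all in Slc2a2, Slc34a1 and Cyp4a12b. For Slc2a2 the log2 fold change became 0.053 with the title number as covariate, 0.047 with genes detected as covariate, 0.11 with median-of-ratios, 0.13 with nuclear coding and 0.10 with quantile scaling and 0.071 without libraries under 9000 genes. In the same order it became 0.062, 0.20, 0.20, 0.22, 0.48 and 0.10 for Slc34a1, and 0.0029, 0.054, 0.047, 0.056, 0.11 and 0.12 for Cyp4a12b. With each library left out it ran from -0.24 to 0.0014 for Slc2a2, from -0.11 to 0.13 for Slc34a1 and from -0.10 to 0.066 for Cyp4a12b. The cause was not tested. No paired analysis was possible because the labels give no replicate numbers that groups share.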
